A study of Mus musculus with 17 samples.

Results

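Integrin subunits were followed across 4 groups of sorted mouse testis cells, as 10 genes of the 24013 rows in the deposited count table. The genes were chosen by name: Itga1, Itga3, Itga5, Itga6, Itga9 and Itgav, which encode alpha chains, and Itgb1, Itgb3, Itgb5 and Itgb8, which encode beta chains. The choice was made with earlier results of these data known. All 10 were found in the table. All 17 libraries came from mice with one Tert-Tomato reporter allele on a mixed B6/J and B6/N background. Of the 3 adult groups, all sorted as TERT-high, 2 lacked Kit: GFRA1pos (n = 4) was positive and GFRA1neg (n = 4) negative for GFRA1. KITpos (n = 5) was the Kit-positive adult group. P6gonocyte (n = 4) held TERT-positive, OCT4-GFP-positive gonocytes taken at postnatal day 6. P6gonocyte cells differed from the adult groups in both age and gate, and those effects cannot be told apart. The labels name no animal, pool or batch, so the p-values measure the spread between these libraries, which may be technical.

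Integrins are cell surface receptors made of 1 alpha and 1 beta chain, and the pair decides which ligand is bound. The beta-1 chain pairs with many alpha chains, among them alpha-1 (a collagen receptor), alpha-3 and alpha-6 (laminin receptors), alpha-5 (the fibronectin receptor) and alpha-9 (a receptor for tenascin and related ligands). The alpha-V chain pairs with beta-1, beta-3, beta-5 and beta-8, mostly to bind ligands with an RGD motif, and with beta-8 it activates latent TGF-beta. Spermatogonia sit on a laminin-rich basement membrane, and alpha-6 and beta-1 are long used as surface antigens to enrich spermatogonial stem cells. Each subunit level below is a transcript count scaled to a common library size (CPM, TMM-scaled), not a protein level.

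Total counts per library ran from 5178352 to 12641907. Pan germ cell markers (5 genes) together held 858 CPM or more in every library. Undifferentiated spermatogonia markers (9 genes) summed to 2188 to 2704 CPM in GFRA1pos and 1433 to 2153 in GFRA1neg, with 201 to 430.3 for KITpos and 1088 to 1342 for P6gonocyte, and differentiating markers (5 genes) to 432 to 503, 162 to 238, 672 to 1034 and 643 to 714. Of the latter, Ccnd2 held most of the GFRA1pos sum, at a mean of 349 CPM there against 74.2 for GFRA1neg and 47.7 for KITpos, while Kit had 17.6, 27.6 and 353 CPM and Stra8 had 23.4, 9.92 and 249 in the same order. P6gonocyte libraries had means of 258 CPM for Ccnd2, 188 for Kit and 73.5 for Stra8, so Kit and Stra8 were above both Kit-negative groups. Markers of other cells were not equal between groups. Leydig markers (8 genes) stood between 24.9 and 138 CPM in KITpos libraries and between 11.1 and 33.8 in the other groups. Sertoli markers (9 of 10 listed genes matched a row) stood between 67.5 and 222 CPM in P6gonocyte libraries, with the highest value in replicate 2, and between 14.0 and 16.2 in GFRA1pos, 21.5 and 30.2 in GFRA1neg and 12.1 and 46.1 in KITpos. Spermatid markers (8 genes) ran from 122 to 1821 CPM in GFRA1pos and 420.2 to 1710 in GFRA1neg, with 492 to 1403 for KITpos and 52.8 to 67.8 for P6gonocyte, where Prm1 was at 0. Spermatocyte markers (8 genes) ran from 128 to 2138 CPM, myoid and fibroblast markers (12 genes) from 27.8 to 83.4, and platelet and red cell markers (6 genes) from 0.781 to 13.6 over all libraries. In bulk samples such as these, fewer cells of a type and less RNA per cell cannot be told apart.

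Itgb1, the common beta chain, had the highest level of the 10 genes per kilobase of exon in every group. Per kilobase (union of GENCODE M21 exons, which may differ from the exons that were counted), the Itgb1 level was 24.0 CPM in GFRA1pos and 18.6 in GFRA1neg, with 33.2 for KITpos and 45.5 for P6gonocyte. Itga6 was the highest alpha chain on that scale, at 13.7, 6.17, 2.4 and 15.3 CPM per kilobase in the same order. The other alpha chains stayed at or below 4.62 CPM per kilobase, the level of Itga3 in GFRA1pos. Itgb8 was the lowest of the 10 genes in each group, with at most 0.0731 CPM per kilobase. Summed over the 10 genes, integrin subunit transcripts held 364 CPM ± 11.7 (SD, n = 4) in GFRA1pos libraries on the scale without length, against 194 CPM ± 14.1 (SD, n = 4) for GFRA1neg. The sum was 211 ± 19.6 (SD, n = 5) for KITpos and 417 ± 42.7 (SD, n = 4) for P6gonocyte.

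**Figure D1:**
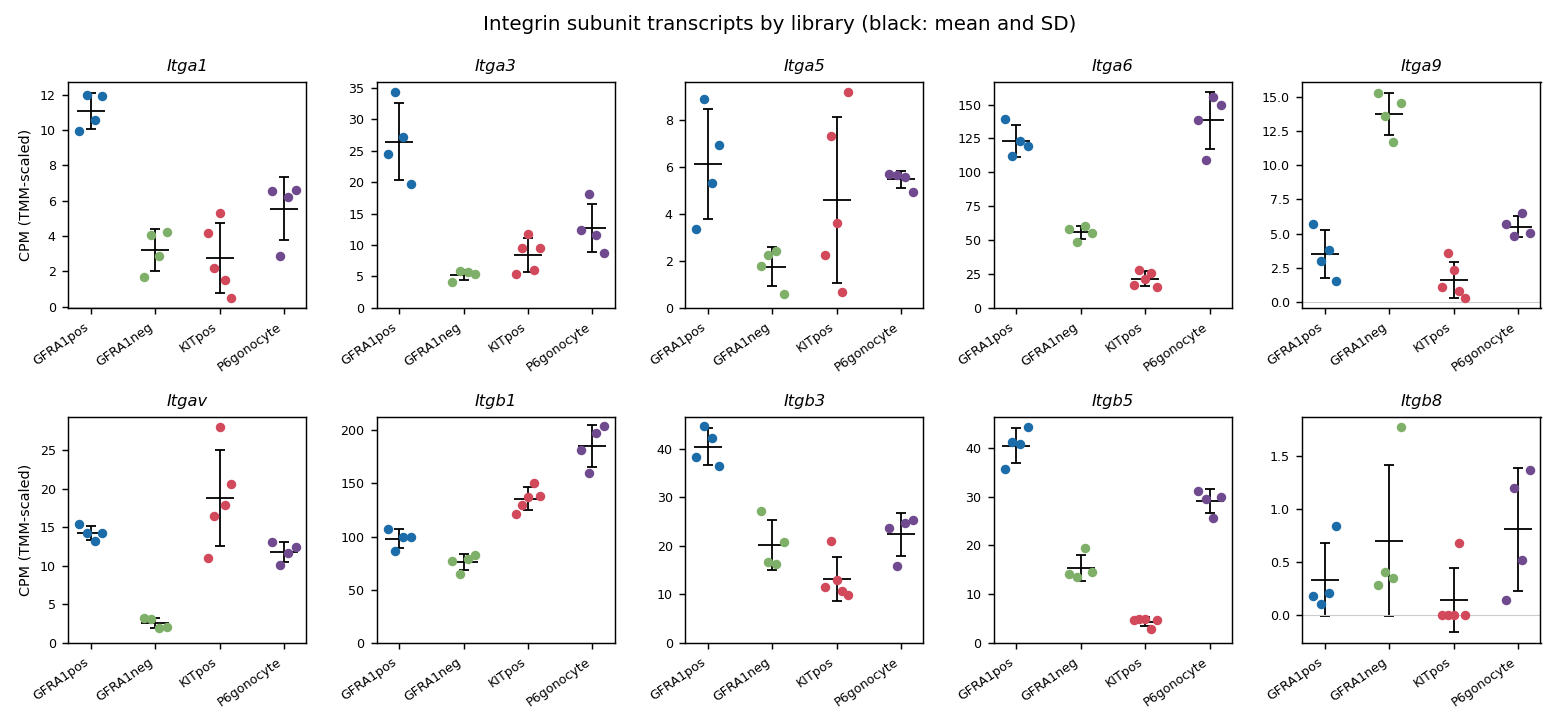
Level of each of the 10 integrin subunit transcripts (vertical axis, TMM-scaled CPM, a separate scale per gene) in the 17 libraries by group, 1 point per library, with the group mean and SD in black. Itgav is low in the 4 GFRA1neg libraries alone, at 3.2 CPM or less, Itga9 is high there, at 11.7 CPM or more, and Itgb5 is under 5 CPM in the 5 KITpos libraries.

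Differences between groups were tested with edgeR's quasi-likelihood test over 15451 genes, and a gene was called at a Benjamini-Hochberg adjusted p under 0.05 within a comparison. Itgb8 did not pass the count filter and has no test there, so 9 of the 10 genes were tested. All 6 pairs of groups were compared. Comparisons that share a group share its libraries, so their values stand side by side and are not independent of each other.

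The comparison of GFRA1pos with GFRA1neg asks which adhesion receptors differ with GFRA1, a receptor for the niche factor GDNF, among Kit-negative cells. Of the 10 subunits, 8 were higher in GFRA1pos, Itga9 was lower and Itgb8 was not tested. Over all genes tested, 14.1% were called in this comparison, 7.3% as higher and 6.84% as lower. The libraries of GFRA1pos and GFRA1neg did not overlap for any of the 9 tested subunits, which held for 23.3% of all genes tested. The median log2 fold change of the 9 subunits was 1.40, beside -0.04 over all genes. Because the subunits were chosen with earlier results of these data known, their share of calls cannot be tested against that of all genes. Among the integrin subunits left out, 9 were tested, with 1 higher, 1 lower and a median log2 fold change of -0.02.

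Among the laminin receptor chains, Itga3 stood at 24.4, 34.4, 27.2 and 19.7 CPM in GFRA1pos replicates 1 to 4 and at 4.05, 5.92, 5.66 and 5.33 in GFRA1neg. Every GFRA1pos library was thus above every GFRA1neg library, and the mean was 5.04-fold higher. The log2 fold change of Itga3 was 2.33 ± 0.28 (SE), with an edgeR adjusted p of 1.51e-05. Itga6 stood at 139.7, 112, 123 and 119 CPM in GFRA1pos and at 57.9, 48.7, 60.5 and 55.4 in GFRA1neg. Its groups were also apart, with a mean 2.22-fold higher in GFRA1pos and a log2 fold change of 1.15 ± 0.17 (SE) (edgeR adjusted p = 0.000102).

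Itgav, the alpha chain of the RGD receptors, stood at 15.4, 14.2, 13.2 and 14.3 CPM in GFRA1pos and at 3.2, 3.12, 1.85 and 2.07 in GFRA1neg. The GFRA1pos libraries lay within a narrow band, and the mean was 5.58-fold above that of GFRA1neg. This was the largest fold of the 9 tested subunits in this comparison, at a log2 fold change of 2.46 ± 0.27 (SE) (edgeR adjusted p = 4.59e-06). Both of its tested beta-3 and beta-5 partners were higher as well. Itgb5 stood at 35.6, 41.3, 40.8 and 44.3 CPM in GFRA1pos and at 14.0, 13.4, 19.4 and 14.4 in GFRA1neg. Its lowest GFRA1pos library was above its highest GFRA1neg library, with a log2 fold change of 1.40 ± 0.18 (SE) (edgeR adjusted p = 2.21e-05). Itgb3 stood at 38.3, 44.8, 42.4 and 36.5 CPM in GFRA1pos and at 27.2, 16.6, 16.2 and 20.8 in GFRA1neg. The Itgb3 mean was 2-fold higher in GFRA1pos, at a log2 fold change of 1.00 ± 0.23 (SE) (edgeR adjusted p = 0.0058). In GENCODE M21 Itgav shares 634 exon bases with the opposite-strand transcript Gm13684, and whether the counting used strand is not given in the sources used here.

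The collagen receptor chain Itga1 had 11.1 CPM ± 1.02 (SD, n = 4) in GFRA1pos libraries and 3.23 CPM ± 1.19 (SD, n = 4) in GFRA1neg. Its log2 fold change was 1.78 ± 0.46 (SE), with an edgeR adjusted p of 0.0131. In GENCODE M21 Itga1 shares 1328 exon bases with the same-strand gene Gm49395. The fibronectin receptor chain Itga5 was low in both groups, at 3.37, 8.88, 5.33 and 6.92 CPM in GFRA1pos and at 1.79, 2.24, 2.43 and 0.592 in GFRA1neg. Its fold change of 1.79 ± 0.56 (SE) (log2) passed the edgeR test narrowly, at an adjusted p of 0.0363. It did not pass without GFRA1neg replicate 1, 3 or 4 or without GFRA1pos replicate 2, 3 or 4, where the edgeR adjusted p ran from 0.0526 to 0.107. Itgb1 differed least, at 108, 85.9, 99.1 and 99.7 CPM in GFRA1pos and at 76.6, 65.0, 78.5 and 82.9 in GFRA1neg. The Itgb1 mean was 1.29-fold higher, at a log2 fold change of 0.37 ± 0.12 (SE) (edgeR adjusted p = 0.0381). That call was lost without GFRA1neg replicate 1, 2 or 3 or without GFRA1pos replicate 1 or 3, where the adjusted p ran from 0.0686 to 0.122.

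Itga9 was the 1 subunit called lower in GFRA1pos. It stood at 5.68, 3.03, 3.82 and 1.52 CPM in GFRA1pos and at 15.2, 13.6, 11.7 and 14.5 in GFRA1neg. Every GFRA1neg library held more than 11 CPM, and no library of the other 3 groups reached 7 CPM. The GFRA1neg mean was 3.92-fold higher, and the log2 fold change of GFRA1pos minus GFRA1neg was -1.97 ± 0.45 (SE) (edgeR adjusted p = 0.00533).

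Transcripts of other cells also differed between GFRA1pos and GFRA1neg, where 7.3% of all genes were called higher in GFRA1pos and 6.84% lower. Summed Sertoli markers were higher in every GFRA1neg library than in any GFRA1pos library (ranges above). Of 7 tested, Wt1 and Gata4 were called lower in GFRA1pos, at 2.46 against 9.66 CPM and 2.69 against 8.97, in the direction of Itga9, while Sox9 had 1.26 against 1.78 and Amh 0.805 against 0.206 with no call. Of 10 tested myoid and fibroblast markers Col1a1 was called lower, at 3.6 against 17.6 CPM, and their sums overlapped. Summed endothelial markers (7 genes) ran from 26.3 to 32.0 CPM in GFRA1pos and from 16.95 to 22.6 in GFRA1neg, and Kdr and Tek were called higher among the 5 that were tested. Cdh5 and Pecam1, which define endothelium, were at 7.95 and 2.76 CPM in GFRA1pos and at 7.58 and 3.96 in GFRA1neg, and Emcn was at 0 in all GFRA1pos libraries. Summed macrophage and leukocyte markers (8 genes) ran from 17.9 to 21.1 CPM in GFRA1pos and from 13.03 to 15.5 in GFRA1neg, and Mrc1 was called higher among the 3 tested, at 9.03 CPM in GFRA1pos and 1.07 in GFRA1neg. Cd68 had 7.51 and 10.5 CPM with no call, and Ptprc and C1qa were at 0.121 and 0.151 CPM in GFRA1pos and at 0 in GFRA1neg. The part of these cells in the integrin differences was not tested. Without the 4 libraries highest in spermatid markers (GFRA1pos replicates 2 and 4, GFRA1neg replicate 2 and KITpos replicate 1), a choice made after seeing the data, 4 subunits were called in this comparison. They were Itga3, Itga6, Itgav and Itgb5, while Itga9 had a log2 fold change of -1.49 and an edgeR adjusted p of 0.0947.

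The 4 promoters printed here belong to the 3 subunits with the lowest edgeR adjusted p in GFRA1pos minus GFRA1neg (Itgav, Itga3 and Itgb5) and to Itga9, which ran the other way. Each is the window of 250 bases before the RefSeq start, 5′ to 3′ on the gene's own strand, on build GRCm38.p6; capitals mark matches to GGGCGG (the GC box) or CCGGAA (the ETS core) on either strand, and CACGTG (an E-box) and TATAAA (the TATA box) were searched in the same way.
Itga3 promoter, chr11:95076715-95076964, minus strand: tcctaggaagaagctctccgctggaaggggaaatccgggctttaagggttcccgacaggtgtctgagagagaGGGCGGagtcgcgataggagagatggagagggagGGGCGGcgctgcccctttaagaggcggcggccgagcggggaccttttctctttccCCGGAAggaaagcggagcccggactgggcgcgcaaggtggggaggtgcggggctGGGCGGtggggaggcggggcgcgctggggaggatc
Itgav promoter, chr2:83724147-83724396, plus strand: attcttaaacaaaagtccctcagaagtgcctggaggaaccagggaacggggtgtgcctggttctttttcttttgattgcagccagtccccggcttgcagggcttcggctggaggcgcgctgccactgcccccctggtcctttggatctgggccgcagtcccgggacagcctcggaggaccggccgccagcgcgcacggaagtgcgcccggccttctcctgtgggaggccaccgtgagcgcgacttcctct
Itgb5 promoter, chr16:33829415-33829664, plus strand: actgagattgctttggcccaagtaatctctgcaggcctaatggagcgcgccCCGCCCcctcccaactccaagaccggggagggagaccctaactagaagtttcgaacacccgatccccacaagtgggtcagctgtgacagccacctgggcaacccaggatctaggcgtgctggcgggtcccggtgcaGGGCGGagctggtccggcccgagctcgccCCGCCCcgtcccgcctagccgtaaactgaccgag
Itga9 promoter, chr9:118711442-118711691, plus strand: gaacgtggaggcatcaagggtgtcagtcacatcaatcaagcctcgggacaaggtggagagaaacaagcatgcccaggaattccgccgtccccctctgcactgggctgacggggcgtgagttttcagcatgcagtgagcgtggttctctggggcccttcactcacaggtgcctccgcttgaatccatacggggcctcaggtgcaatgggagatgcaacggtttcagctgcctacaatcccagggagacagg
The Itga3 window held 3 GC boxes and 1 ETS core, and the Itgb5 window held 3 GC boxes. The Itgav and Itga9 windows held none of the 4 motifs. Over 32851 RefSeq windows of that length, 32.7% held a GC box, 12% an ETS core, 6.02% an E-box and 12.4% a TATA box. The Itga3, Itgav and Itgb5 windows had 67.6%, 64.4% and 65.2% of G and C bases and 22, 18 and 18 CG dinucleotides. Itga9 had 58.4% and 10, beside medians of 52.4% and 6 over all windows. A second Itga3 start in the table is not printed, and 8 of the 10 subunits had an entry. Whether each printed window, that of Itga9 included, precedes the main start of its gene or a start used in these cells was not checked.

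KITpos was compared with GFRA1neg to ask how adhesion receptors differ where TERT-high cells carry Kit, the receptor that marks differentiating spermatogonia. Of the 10 subunits, 4 were higher in KITpos, 4 were lower, Itga1 was not called and Itgb8 was not tested. Over all genes tested, 45.1% were called in this comparison, 22.1% as higher and 23% as lower. The libraries did not overlap for 5 of the tested subunits, and for 33.8% of all genes tested. The median log2 fold change of the 9 subunits was -0.21, beside 0.03 over all genes.

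Itgav and Itgb1 rose and Itga6, Itga9 and Itgb5 fell, each with no overlap between the groups. Itgav stood at 11.1, 16.5, 28.0, 17.9 and 20.6 CPM in KITpos replicates 1 to 5, so the lowest KITpos library was more than 3-fold above the highest GFRA1neg library. Its mean was 7.35-fold that of GFRA1neg, with a log2 fold change of 2.86 ± 0.26 (SE) (edgeR adjusted p = 7e-08). Itgb1 stood at 121, 129.6, 137, 151 and 138 CPM in KITpos, and its log2 fold change was 0.84 ± 0.11 (SE) (edgeR adjusted p = 6.7e-06). Itga6 stood at 16.8, 28.2, 21.7, 26.1 and 15.6 CPM in KITpos, all below the GFRA1neg libraries. It fell 2.57-fold, at a log2 fold change of -1.36 ± 0.16 (SE) (edgeR adjusted p = 1.66e-06). Itgb5 stood at 4.62, 4.75, 4.8, 2.73 and 4.68 CPM in KITpos and fell 3.55-fold, at -1.81 ± 0.18 (SE) (log2). Itga9 stood at 1.12, 3.59, 2.33, 0.853 and 0.346 CPM in KITpos and fell 8.34-fold, the largest fold of the tested subunits in this comparison.

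The other calls against GFRA1neg were narrow. Itga3 stood at 5.46, 9.51, 11.8, 5.97 and 9.53 CPM in KITpos, overlapping GFRA1neg, with a log2 fold change of 0.69 ± 0.27 (SE) (edgeR adjusted p = 0.041). Itga5 spread from 0.682 to 9.18 CPM over the KITpos libraries, at a log2 fold change of 1.38 ± 0.54 (SE) (edgeR adjusted p = 0.0432). Itgb3 stood at 11.5, 21.0, 12.97, 10.6 and 9.87 CPM in KITpos, with replicate 2 above the other libraries, at a log2 fold change of -0.61 ± 0.22 (SE) (edgeR adjusted p = 0.0308). None of these 3 calls held when only the libraries of these groups were fitted, where the edgeR adjusted p was 0.11 for Itga3, 0.11 for Itga5 and 0.0633 for Itgb3, and 5 subunits were called. By limma voom Itga3 (0.0985) and Itga5 (0.161) were not called, and with no count filter Itgb3 was not (0.0523). Leaving out 1 library also ended each of them. Itga3 was lost without GFRA1neg replicate 1, 3 or 4 or KITpos replicate 2, 3 or 5 (edgeR adjusted p from 0.0616 to 0.123). Itga5 was lost without GFRA1neg replicate 1, 2 or 4 or KITpos replicate 2 or 5 (from 0.0508 to 0.138), and Itgb3 without GFRA1neg replicate 1 or 4 or KITpos replicate 1, 3, 4 or 5 (from 0.0511 to 0.144). A count of 5 was found without GFRA1neg replicate 1, GFRA1neg replicate 4 or KITpos replicate 5. Itga1 had 2.76 CPM ± 1.965 (SD, n = 5) in KITpos, and the 95% interval of its log2 difference from GFRA1neg ran from -1.08 to 0.67. Of the 8 Leydig markers 6 were called higher in KITpos in this comparison, where 22.1% of all genes were called higher. The part of these markers in the integrin differences was not tested.

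**Figure D2:**
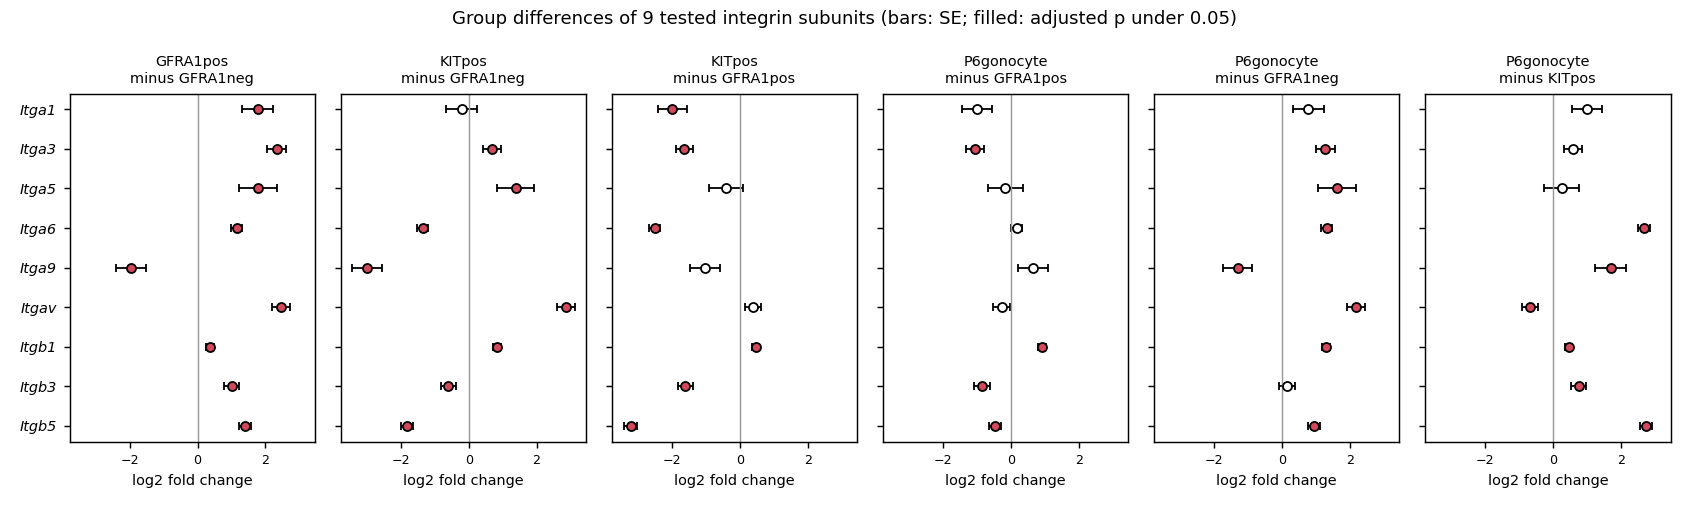
Log2 fold change (horizontal axis) of the 9 tested integrin subunits in the 6 comparisons, with bars of 1 SE and filled points at an edgeR adjusted p under 0.05. Of the 9 points, 8 lie above 0 for GFRA1pos minus GFRA1neg with Itga9 at -1.97, while in KITpos minus GFRA1pos Itgb5 is the lowest at -3.22.

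KITpos and GFRA1pos, the Kit-positive and the GDNF receptor-positive ends of the adult sorts, differed in 6 subunits, with 1 higher and 5 lower in KITpos. Over all genes tested, 48.6% were called in this comparison, 24.9% as higher and 23.7% as lower, and the median log2 fold change of the 9 subunits was -1.61 beside 0.07 over all genes. The libraries did not overlap for 6 of the tested subunits, and for 37.2% of all genes tested. Itgb5 fell 9.38-fold, at a log2 fold change of -3.22 ± 0.18 (SE) (edgeR adjusted p = 9.8e-11), and Itga6 fell 5.7-fold, at -2.51 ± 0.16 (SE). Itga1 fell by 1.98 ± 0.44 (SE), Itga3 by 1.64 ± 0.26 (SE) and Itgb3 by 1.61 ± 0.22 (SE) on the log2 scale. Itgb1 rose by 0.47 ± 0.11 (SE), with every KITpos library above every GFRA1pos library. Itgav did not pass, at a log2 fold change of 0.40 ± 0.23 (SE) with a 95% interval from -0.06 to 0.85, but was called without KITpos replicate 1 (edgeR adjusted p = 0.0485). Itga5 did not pass, at -0.41 ± 0.50 (SE). Itga9 had an edgeR adjusted p of 0.0624 at a log2 fold change of -1.03 ± 0.45 (SE), and it was called without KITpos replicate 2 (0.00734) or GFRA1pos replicate 4 (0.0254), with RLE scaling (0.0485) and by DESeq2 (0.0273).

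P6gonocyte was compared with GFRA1pos to set neonatal germ cells beside the adult cells with the GDNF receptor. These groups also differed in differentiating markers, of which 5 were tested, with 3 called higher in P6gonocyte and 1 lower. The part of that difference in the integrin differences was not tested. Of the 10 subunits, Itgb1 was higher in P6gonocyte, 3 were lower, 5 were not called and Itgb8 was not tested. Over all genes tested, 39.2% were called in this comparison, 17.3% as higher and 21.9% as lower, and the median log2 fold change of the 9 subunits was -0.28 beside -0.05 over all genes. The libraries did not overlap for 6 of the tested subunits, and for 41.5% of all genes tested. Itgb1 stood at 181, 159.6, 198 and 204 CPM in P6gonocyte, its highest level of the 4 groups. All 4 libraries were above all GFRA1pos libraries, at a log2 fold change of 0.92 ± 0.12 (SE) (edgeR adjusted p = 2.19e-05). Itga3 stood at 12.4, 18.04, 11.6 and 8.8 CPM in P6gonocyte and was 2.08-fold lower than in GFRA1pos, at -1.05 ± 0.27 (SE) (log2). Itgb3 stood at 23.7, 15.9, 24.6 and 25.4 CPM and was 1.81-fold lower. Itgb5 stood at 31.2, 29.6, 25.7 and 30.0 CPM, below all GFRA1pos libraries, at a log2 fold change of -0.48 ± 0.17 (SE) (edgeR adjusted p = 0.0353). That Itgb5 call was lost in 7 of the 8 fits that left out 1 library of these groups, all but the fit without GFRA1pos replicate 1, with an adjusted p from 0.0565 to 0.107.

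Itga6 stood at 139, 109, 156 and 149.9 CPM in P6gonocyte and overlapped GFRA1pos, with a 95% interval of the log2 difference from -0.16 to 0.49. Itgav stood at 13.1, 10.1, 11.7 and 12.4 CPM in P6gonocyte, just under the GFRA1pos libraries, and its difference of -0.28 ± 0.25 (SE) (log2) was not called. Itga1 had 5.55 CPM ± 1.79 (SD, n = 4) in P6gonocyte, also under GFRA1pos, and was not called at an edgeR adjusted p of 0.0841. It was called when only the libraries of these groups were fitted, at an adjusted p of 0.0101, and by limma voom, at 0.0195. Of 7 tested Sertoli markers 6 were called higher in P6gonocyte, and of 10 tested myoid and fibroblast markers 5 were called higher and 1 lower. Over all genes 17.3% were called higher and 21.9% lower. The part of these markers in the integrin differences was not tested. The summed myoid and fibroblast markers ran from 50.5 to 64.4 CPM in P6gonocyte and from 33.3 to 83.4 in GFRA1pos.

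Against the other adult groups, P6gonocyte stood apart in Itga6, Itgb5 and Itgb1. Compared with GFRA1neg, 6 subunits were higher and Itga9 was lower, where 43.6% of all genes were called (18.8% higher and 24.9% lower). The libraries did not overlap for 7 subunits, and for 44.8% of all genes. Itgav rose by 2.19 ± 0.27 (SE), Itga6 by 1.32 ± 0.17 (SE) and Itgb1 by 1.29 ± 0.12 (SE) on the log2 scale, and Itgb3 was not called at 0.15 ± 0.23 (SE). The others called higher were Itga3, Itga5 and Itgb5, at log2 fold changes of 1.28, 1.63 and 0.93. By edgeR adjusted p, Itga5 was lost without GFRA1neg replicate 4 (0.0707), and Itga9 without P6gonocyte replicate 2 (0.0518) or 4 (0.0528). Compared with KITpos, 5 subunits were higher and Itgav was lower, where 49.1% of all genes were called (21.8% higher and 27.3% lower). The libraries did not overlap for 4 subunits, and for 35.9% of all genes. Itgb5 was 6.75-fold and Itga6 6.39-fold higher in P6gonocyte than in KITpos. Itga9, Itgb3 and Itgb1 rose by 1.69, 0.76 and 0.46, and Itgav had a log2 fold change of -0.67 ± 0.24 (SE) with overlapping libraries (edgeR adjusted p = 0.0246). The Itgav call was lost without KITpos replicate 3 (adjusted p = 0.0887), P6gonocyte replicate 2 (0.0691) or P6gonocyte replicate 3 (0.0577), and when only the libraries of these groups were fitted (0.0508). Itga1 and Itga3 were not called there, but Itga1 was without KITpos replicate 1 (edgeR adjusted p = 0.0492), KITpos replicate 3 (0.0187) or P6gonocyte replicate 2 (0.0371), and Itga3 without KITpos replicate 3 (0.0303) or P6gonocyte replicate 4 (0.0379). DESeq2 called both, at adjusted p-values of 0.0451 and 0.0467, and 8 subunits in all.

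Set in order of level, the subunits took different sequences of groups. Itgb1 rose from GFRA1neg through GFRA1pos and KITpos to P6gonocyte, and each neighbouring pair was called, the first narrowly, at log2 differences of 0.37, 0.47 and 0.46. For Itga6 the order was KITpos, GFRA1neg, GFRA1pos and P6gonocyte, where the last pair did not differ beyond its spread. For Itgb5 the order was KITpos, GFRA1neg, P6gonocyte and GFRA1pos, with every neighbouring pair called, the last narrowly. For Itgb3 the order was the same, KITpos and GFRA1neg were apart by the narrow call above, and GFRA1neg and P6gonocyte did not differ beyond their spread. Itga3 had its neighbours GFRA1neg and KITpos apart by the narrow call above, KITpos and P6gonocyte not called, and GFRA1pos called above P6gonocyte. In Itga1, KITpos, GFRA1neg and P6gonocyte were neighbours without a call and so were P6gonocyte and GFRA1pos. In Itga5, GFRA1neg was below KITpos by a narrow call, and KITpos, P6gonocyte and GFRA1pos were not called against each other. In Itga9 the order was KITpos, GFRA1pos, P6gonocyte and GFRA1neg, with a call only in the last pair. In Itgav, GFRA1neg was below P6gonocyte, with no call between P6gonocyte and GFRA1pos or between GFRA1pos and KITpos.

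Itgb8, the beta chain of the TGF-beta activating pair with alpha-V, was near the limit of detection. Its raw counts were 2, 1, 2 and 10 in GFRA1pos and 3, 5, 3 and 18 in GFRA1neg. They were 0, 0, 0, 4 and 0 in KITpos and 1, 10, 5 and 10 in P6gonocyte. A count of 0 allows up to 0.348 to 0.520 CPM in the 4 KITpos libraries concerned, taking 3 counts as the limit, which covers counting error only since reads with no molecular identifier may repeat one molecule. With no count filter, the edgeR adjusted p of Itgb8 ran from 0.0727 to 0.906 over the 6 comparisons. Itgb8 passed the filter in some fits that left out libraries, and in these it was called once, in P6gonocyte minus KITpos without P6gonocyte replicate 1 (edgeR adjusted p = 0.0404, log2 fold change 2.96).

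The count ratio of a pair of subunits within 1 library does not depend on library scaling, and 3 such ratios, chosen after the data were seen, were compared over the 6 pairs of groups. Exact two-sided permutation tests were used, with p-values adjusted by Benjamini-Hochberg over all 18 tests. The ratio of Itga6 to Itgb1 counts was 1.3, 1.3, 1.24 and 1.19 in GFRA1pos and 0.757, 0.749, 0.772 and 0.668 in GFRA1neg. It was 0.138, 0.217, 0.158, 0.173 and 0.113 in KITpos and 0.767, 0.683, 0.788 and 0.735 in P6gonocyte. Thus Itga6 exceeded Itgb1 in counts in GFRA1pos libraries and was at most 0.217 of it in KITpos libraries. The difference between KITpos and GFRA1pos was 8.06-fold (exact permutation p = 0.00794, adjusted 0.0204), which is the smallest p that 5 against 4 libraries allow. Every KITpos library was already below every GFRA1pos library for Itga6 and above it for Itgb1. The ratio therefore had to separate these groups, and this p-value adds no evidence to the subunit tests. GFRA1pos and GFRA1neg differed 1.71-fold (exact permutation p = 0.0286, adjusted 0.0396), the smallest that 4 against 4 allow. P6gonocyte and GFRA1neg overlapped, at p = 0.8 by the exact permutation test.

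The ratio of Itgav to Itgb1 counts was 0.144, 0.166, 0.133 and 0.143 in GFRA1pos and 0.0418, 0.048, 0.0236 and 0.025 in GFRA1neg. It was 0.0911, 0.127, 0.204, 0.119 and 0.149 in KITpos and 0.072, 0.0633, 0.0592 and 0.0606 in P6gonocyte. GFRA1neg was lowest, 4.43-fold below GFRA1pos (exact permutation p = 0.0286, adjusted 0.0396), and GFRA1pos and KITpos overlapped (exact permutation p = 0.587). The ratio of Itgb5 to Itgb3, alternative partners of alpha-V, was 0.928, 0.922, 0.962 and 1.21 in GFRA1pos and 0.516, 0.808, 1.2 and 0.692 in GFRA1neg. It was 0.402, 0.227, 0.37, 0.258 and 0.474 in KITpos and 1.32, 1.86, 1.04 and 1.18 in P6gonocyte. All 5 KITpos libraries were below all others, 3-fold under GFRA1pos (exact permutation p = 0.00794, adjusted 0.0204). GFRA1pos and GFRA1neg overlapped in this ratio (exact permutation p = 0.2), but not without GFRA1neg replicate 3 (exact permutation p = 0.0286).

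**Figure D3:**
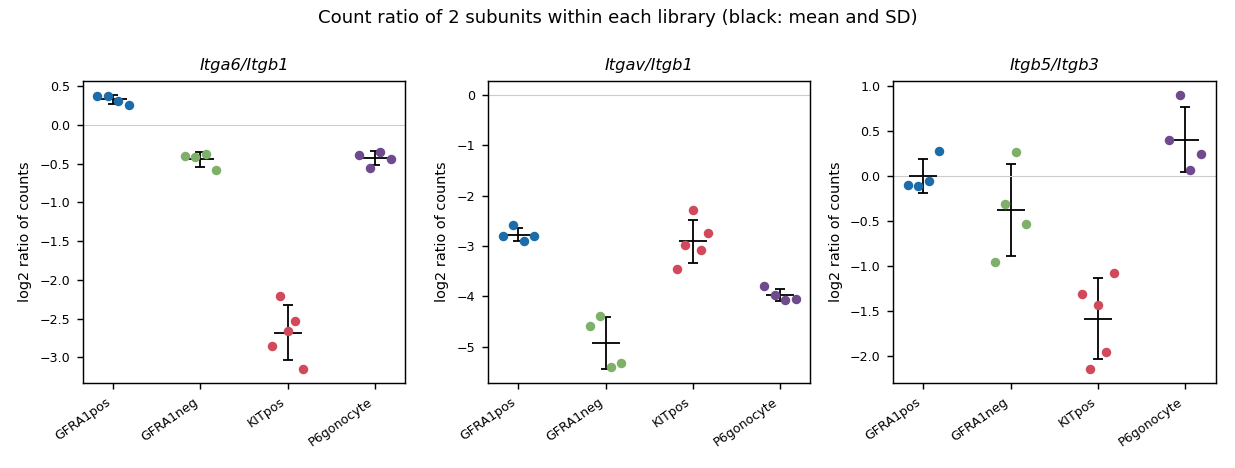
Log2 ratio of raw counts of 2 integrin subunits within each library (vertical axis) by group, 1 point per library, with the group mean and SD in black; 0 means equal counts. KITpos libraries are lowest for Itga6 over Itgb1, with ratios from 0.113 to 0.217, and for Itgb5 over Itgb3, and GFRA1neg libraries are lowest for Itgav over Itgb1.

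The genes whose pattern over the 17 libraries was nearest to a subunit were found by the root mean square difference of centred log2(CPM + 1), among 12195 candidate genes of at least 5 CPM in a group. These are descriptions, and the libraries share their group structure. Fyn, a Src family kinase, was the nearest gene to Itga6, at 0.25 log2 units per library, and its mean level was 95.7 CPM in GFRA1pos and 38.9 in GFRA1neg, with 17.3 for KITpos and 79.7 for P6gonocyte. Mgat4a and Septin11 followed, at 0.25 and 0.27. Serbp1 was nearest to Itgb1 (0.12), Zfp532 to Itgb3 (0.21), Mb21d2 to Itgb5 (0.31) and Cdr2l to Itga3 (0.28). Among the genes near to Itgav were Rrm2 (0.43) and E2f8 (0.44), which act in DNA synthesis and the cell cycle. Itga9 was nearest to the kinesin gene Kif5c (0.38), which had 91.5 CPM in GFRA1neg and 17.4 to 39.9 in the other groups. Unc79 was nearest to Itga1 (0.38) and Zfyve28 to Itga5 (0.45).

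The other 17 integrin subunits of the family were mostly low, and 9 of them passed the count filter. In GFRA1pos minus GFRA1neg 1 was higher and 1 lower, beside the 14.1% called over all genes. Itga7, a further laminin receptor chain, was called higher, with 5.45 CPM ± 0.95 (SD, n = 4) in GFRA1pos and 1.76 CPM ± 1.13 (SD, n = 4) in GFRA1neg. In KITpos minus GFRA1neg none was called by edgeR at an adjusted p under 0.05, where 2 had an unadjusted p under 0.05 and 45.1% of all genes were called. In P6gonocyte minus GFRA1pos 1 was lower, beside 39.2% of all genes called in either direction. Itgb4, the alternative partner of alpha-6, was named here after its values were seen. It had 4.25 CPM ± 1.27 (SD, n = 4) in GFRA1pos and 7.1 CPM ± 2.04 (SD, n = 4) in GFRA1neg. Its level was 6.64 CPM in KITpos and 3.66 in P6gonocyte. No call is attached to these levels, and no difference between groups is drawn from them.

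Of 15 tested laminins and basement membrane ligands, 2 were higher and 1 was lower in GFRA1pos than in GFRA1neg. Over all genes 14.1% were called in this comparison. The genes called from the list, Nid1, Nid2 and Hspg2, encode no laminin chain, the type of ligand that alpha-3 and alpha-6 bind. Nid1, a nidogen that links laminin to collagen IV, had 223 CPM ± 12.9 (SD, n = 4) in GFRA1pos and 25.4 CPM ± 3.54 (SD, n = 4) in GFRA1neg, at a log2 fold change of 3.13 ± 0.26 (SE). Nid2 had 156 against 49.8 CPM. Hspg2, which encodes perlecan, ran the other way, with 52.9 CPM ± 11.1 (SD, n = 4) in GFRA1pos and 186 CPM ± 15.1 (SD, n = 4) in GFRA1neg. In KITpos minus GFRA1neg 1 ligand was higher and 8 were lower, beside 45.1% of all genes called in either direction. The laminin chains Lamb1 and Lamc1 fell there from 206 to 29.5 CPM and from 104 to 20.4 CPM. Lamb2 was called higher narrowly, at 12.96 against 7.82 CPM with overlapping libraries (edgeR adjusted p = 0.0476). In P6gonocyte minus GFRA1pos, where 39.2% of all genes were called, 1 was higher and 6 were lower, with Lama3 higher at 33.3 against 16.9 CPM and Nid1 and Lama5 lower at 59.5 and 30.7 CPM. Medians of this list in the 3 comparisons were 0.02, -0.57 and -0.26 (log2), beside -0.04, 0.03 and -0.05 over all genes.

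Of 8 tested RGD-type ligands none was called by edgeR in GFRA1pos minus GFRA1neg, where 14.1% of all genes were called. An unadjusted edgeR p under 0.05 was found for 2 of them, in the lower direction. In KITpos minus GFRA1neg 2 were higher and 3 lower, beside 45.1% of all genes. Npnt, which encodes nephronectin, rose from 4 CPM ± 0.857 (SD, n = 4) in GFRA1neg to 19.0 CPM ± 2.32 (SD, n = 5) in KITpos, and it had 11.2 CPM in P6gonocyte against 2.95 in GFRA1pos. Fbn1 and Mfge8 fell in KITpos, to 6.3 and 40.6 CPM from 26.0 and 64.9.

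Inside the cell, talins, kindlins and the ILK complex join integrin tails to actin. Of 22 tested activators and adaptors, 3 were higher in GFRA1pos than in GFRA1neg, a share near the 14.1% of all genes called. Parva had 12.5 against 5.35 CPM and Zyx 93.2 against 47.5. None was called lower by edgeR, where 2 had an unadjusted p under 0.05 in that direction. In KITpos minus GFRA1neg 4 were higher and 7 lower, a share near the 45.1% of all genes. Tns3 and Tns2, tensins that bind beta tails, fell to 38.3 and 6.29 CPM from 218 and 34.6, while Itgb1bp1, a binder of the beta-1 tail, rose to 38.8 CPM from 12.2 and Lims1 to 54.8 from 32.0. In P6gonocyte minus GFRA1pos 4 were higher and 8 lower, beside 39.2% of all genes. The kindlin gene Fermt2 was at 90.4 against 61.4 CPM, Rap1b was higher, and Tns1 and Tns2 were lower. The Tns1 libraries overlapped, at 7.34 CPM ± 2.56 (SD, n = 4) in P6gonocyte and 32.6 CPM ± 30.7 (SD, n = 4) in GFRA1pos. Of 20 focal adhesion signalling genes, 3 were higher and 2 lower in GFRA1pos than in GFRA1neg, 5 higher and 8 lower in KITpos than in GFRA1neg, and 4 higher and 3 lower in P6gonocyte than in GFRA1pos. Over all genes 14.1%, 45.1% and 39.2% were called in these comparisons, and the last count is below its share. Fyn and Rac1 led the rises in GFRA1pos, at log2 fold changes of 1.30 ± 0.16 (SE) and 0.63 ± 0.15 (SE). Yes1 and Vav2 were lower, Yes1 with overlapping libraries. Dock1 and Ptk2b fell in KITpos, by 2.12 ± 0.25 (SE) and 1.95 ± 0.33 (SE) on the log2 scale, where Rac1 and Cdc42 rose by 0.83 ± 0.14 (SE) and 0.58 ± 0.15 (SE). In P6gonocyte Crk and Cdc42 were higher and Ptk2b and Bcar1 lower than in GFRA1pos.

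**Figure D4:**
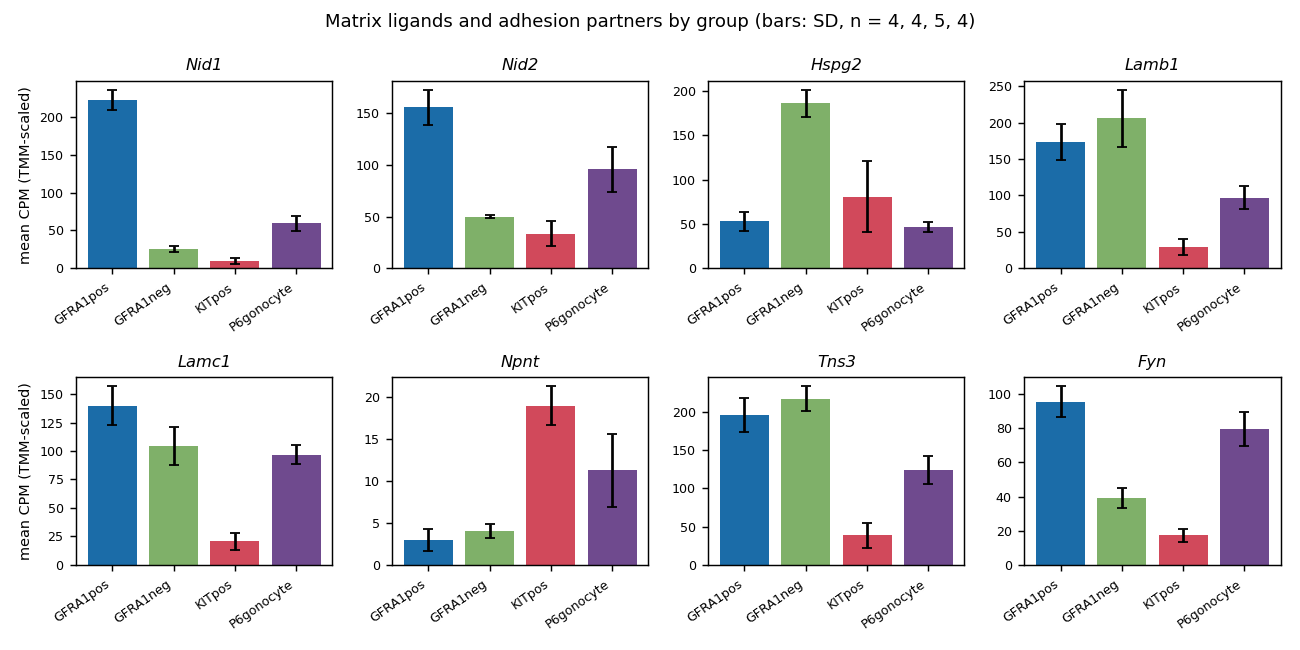
Mean level (vertical axis, TMM-scaled CPM, starting at 0) with SD of 8 matrix ligand and adhesion partner genes by group (4, 4, 5 and 4 libraries). Nid1 is highest in GFRA1pos at 223 CPM, Hspg2 in GFRA1neg at 186, Npnt in KITpos at 19.0, and Lamb1, Lamc1, Tns3 and Fyn are lowest in KITpos.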

How the data were processed

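The authors deposited unnormalized gene counts, as whole numbers per Entrez gene. Per the submitters' processing notes, Trim Galore, TopHat2 2.0.4, Bowtie, Bowtie2 2.0.0-6, DESeq, DESeq2 and the mm9 build were used, in roles the notes do not give. Which program counted, with which annotation and with or without strand, is not given in the sources used here. Per the labels' protocols, cells were sorted into Trizol and their RNA was amplified (NuGEN Ovation V2) before paired-end sequencing. One GFRA1pos column, taken as replicate 1, has GFP in its name where the others have GFR. Symbols were matched by number to the RefSeq table of GRCm38.p6 for 23930 of 24013 rows.

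The test was the quasi-likelihood F-test of edgeR 4.0.16 (R 4.3.3), fitted to all 17 libraries after filterByExpr with TMM scaling, and it was tested on simulated data. The standard error is the absolute log2 fold change divided by the square root of F, and 95% intervals are the estimate plus or minus 1.96 of it. Alternatives were other scalings (upper-quartile, RLE), a filter of 1 CPM in 4 libraries or none, DESeq2 1.42.0, voom of limma 3.58.1, a fit of only the 2 groups compared, a block for replicate number, and leaving out each library or the 4 highest in spermatid markers. Members and gene lists were chosen with earlier results of these data known. Named genes were all 10 subunits, the 3 nearest genes per tested subunit, and the 2 largest rises and falls per list and comparison with at least 5 CPM in a group; some of these are given in part, and 1 near gene is not reported here. Replicate libraries of a group differed by more than counting error, with a chi-square per degree of freedom from 4.13 to 51.0 over 28 pairs. Figures were drawn with matplotlib 3.10.9.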

Additional observations from a re-analysis of the deposited data

Results flagged for a closer look

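Of 40 pairs of subunit and group, 8 held a library far from the others of its group, where chance alone flags about 5% of groups. That rate assumes normally distributed values and need not hold for Itgb8, which gave 3 of the 8 flags at 18 counts or less per library. Itga1 in P6gonocyte replicate 2 stood at 2.89 CPM, where the remaining P6gonocyte libraries held at least 6.21 CPM, and this library also held the highest summed Sertoli markers. Itga5 in P6gonocyte replicate 4 was 4.95 CPM, against 5.59 to 5.69. Itgb3 in KITpos replicate 2 was 21.0 CPM, against 9.87 to 12.97. Itgb5 in GFRA1neg replicate 3 was 19.4 CPM, against 13.4 to 14.4. Itgb5 in KITpos replicate 4 was 2.73 CPM, against 4.62 to 4.80. Itgb8 was highest in replicate 4 of each of the 4 groups, and in 3 of them that library stood far from the others: 0.844 CPM in GFRA1pos (10 counts), 1.78 CPM in GFRA1neg (18 counts) and 0.682 CPM in KITpos (4 counts). In P6gonocyte replicate 4 it was 1.37 CPM, beside 1.20 in replicate 2.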

How the results depend on the processing

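No called difference of a subunit or ratio reversed among the alternatives. The sign of Itga1 in KITpos minus GFRA1neg (-0.58 to 0.04, log2) and of Itga5 in KITpos minus GFRA1pos (-1.01 to 0.23), P6gonocyte minus GFRA1pos (-0.36 to 0.36) and P6gonocyte minus KITpos (-0.03 to 0.88) varied, with no call in any of them. In all, 1018 of 1098 values for single subunits and ratios kept their side of the threshold, 62 lost the call and 18 gained one. That threshold was an adjusted p under 0.05 for subunits and an unadjusted exact permutation p under 0.05 for ratios. Among those lost was Itgav over Itgb1 in P6gonocyte minus GFRA1neg, without each P6gonocyte library in turn (exact permutation p = 0.0571). Itga3, Itga6, Itgav and Itgb5 were called in GFRA1pos minus GFRA1neg, and Itga6, Itga9, Itgav, Itgb1 and Itgb5 in KITpos minus GFRA1neg, under each alternative run. In KITpos minus GFRA1neg, 8 subunits were called, 5 when only these 2 groups were fitted and 5 to 7 when a library was left out. In the other comparisons leaving out a library gave 7 to 8 subunits for GFRA1pos minus GFRA1neg, 6 to 7 for KITpos minus GFRA1pos, 3 to 4 for P6gonocyte minus GFRA1pos, 6 to 7 for P6gonocyte minus GFRA1neg and 5 to 7 for P6gonocyte minus KITpos. Without the 4 libraries highest in spermatid markers, chosen after seeing the data, GFRA1pos minus GFRA1neg had 4 called subunits (4 higher, 0 lower) in place of 9 and 1268 called genes in place of 2185, and P6gonocyte minus GFRA1pos had 3971 in place of 6060; GFRA1pos then kept 2 libraries, and the fit had 13. Replicate numbers are shared between groups, and same-numbered libraries correlated in their deviations from -0.46 to 0.52, over 0.1 in 6 of 24 pairs. Between GFRA1pos and GFRA1neg the values were 0.48, 0.52, 0.37 and 0.03 for replicates 1 to 4. Not every pair was over 0.1 and not every library correlated best with its own number, so the numbers were not taken as pairs, and with the replicate block 9 subunits were again called there. With that block, Itga5 (adjusted p = 0.163) and Itgb3 (0.101) were not called in KITpos minus GFRA1neg nor Itgav in P6gonocyte minus KITpos (0.0661), Itga3 was called there (0.0254), all by edgeR, and no other subunit's call changed. RLE and upper-quartile scaling moved the median gene by 0.055 (log2) or less. Depth limits Itgb8, with 4 to 29 counts per group.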

Other observations

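Genes of TGF-beta signalling, the pathway that alpha-V integrins can switch on, were measured in the same libraries. Tgfb1, which encodes a ligand and is named here after its values were seen, had 20.9 CPM ± 3.45 (SD, n = 4) in GFRA1pos and 8.39 CPM ± 2.79 (SD, n = 4) in GFRA1neg. Its level was 3.23 CPM ± 1.47 (SD, n = 5) in KITpos libraries and 13.6 CPM ± 1.81 (SD, n = 4) in P6gonocyte. The ligand genes Tgfb2 and Tgfb3 were low, at 0.617 and 0.763 CPM in GFRA1pos and at 0.414 and 1.37 in GFRA1neg. Of 11 tested genes of this list, 3 were higher and 2 lower in GFRA1pos than in GFRA1neg, beside 14.1% called over all genes. The receptor genes moved apart: Tgfbr2 rose in GFRA1pos, from 2.09 to 8.78 CPM, while Tgfbr1 fell, from 56.1 to 34.1 CPM. In KITpos minus GFRA1neg 1 was higher and 3 lower, a share below the 45.1% called over all genes, with Tgfbr1 at 107 CPM and Ltbp1, which holds latent TGF-beta in the matrix, lower at 5.95 against 30.8 CPM. Nrros, which tethers latent TGF-beta to the cell surface, was higher in GFRA1pos, at 5.1 against 0.773 CPM.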
